A study of Homo sapiens with 18 samples.

Results

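The transcripts examined here are those of 10 genes of the NF-kB system. They encode the inhibitors NFKBIA and NFKBIE, their nuclear relative NFKBIZ and the subunits NFKB1, NFKB2, RELA and RELB. The others are the feedback regulators TNFAIP3, TNIP1 and BIRC3. These 10 genes are among 55765 gene symbols counted by RNA-seq in OVCAR3, an established line of high-grade serous ovarian carcinoma cells. In a first series, OVCAR3 cells in RPMI medium with 2% FBS received commercial human IgA or IgG of no chosen specificity at 0.5 µg/ml, or no antibody. In a second series they received IgA directed at BDNF (a secreted neurotrophin) or at TSPAN7 (a surface tetraspanin) at 0.5 µg/ml, or no antibody, both antibodies having been purified from immortalised B cells grown out of ovarian tumours. Each of the 6 groups had 3 libraries, no group carried a genetic change, and the sample descriptions give 24 h for all groups whereas other descriptions of the same experiments give a shorter time. The design asks whether a cancer cell that takes up IgA through the polymeric immunoglobulin receptor changes its transcription, with IgG as the antibody that this receptor does not carry.

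The members were found by symbol, each as a single row in both tables, and all 10 of 10 passed the filter on low counts in both series. They were chosen by name with measured values of these same libraries known, in particular the level of NFKBIA after non-specific IgA and the levels of several targets of NF-kB in both series. For the contrasts of non-specific IgA the values are therefore given as a description, without p-values of single genes. Calls at the threshold, standard errors and intervals of these contrasts are part of that description and no support for the choice. The tests of the second series and of IgG are given, but they too were known when the genes were chosen and are no independent support for the choice.

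NF-kB is a family of dimeric transcription factors that wait in the cytoplasm bound to inhibitors of the IkB family. Receptors for tumour necrosis factor, interleukin-1 and microbial products lead to the phosphorylation and breakdown of the inhibitor, and the freed dimer enters the nucleus. Many of its target genes encode its own inhibitors and precursors, so that the pathway shuts itself off, and in epithelial cells the same dimers drive chemokines and survival genes. A second, non-canonical arm works by processing of the NFKB2 precursor and pairs its product with RELB.

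Because self-regulation runs through promoters, the windows from 250 bases before to 50 bases after the annotated start were read from RefSeq on GRCh38.p14. The table matched 8 of the 10 genes by symbol (all but NFKBIE and RELB), with 14 start sites. The kappaB consensus of 10 bases was searched on both strands, and overlapping matches were counted separately. At least 1 match was found in 9 of the 14 windows and in 7 of the 8 genes, against 11.3% of all 35116 windows and 13.3% of all 27305 symbols. Neither window of RELA held a match, and NFKB1, NFKB2 and TNIP1 each also had a start without one. Of 19 symbols from a list of NF-kB target genes, 10 (52.6%) held a match. A match is a description of letters and not a measured binding site. The windows of the 3 genes with the largest differences after non-specific IgA that have a single listed start are shown with that of one RELA start, to set promoters with matches (in capitals) beside one without. They lie at chr14:35404700-35404999 (minus strand) for NFKBIA, chr6:137867009-137867308 (plus strand) for TNFAIP3, chr11:102317234-102317533 (plus strand) for BIRC3 and chr11:65662867-65663166 (minus strand) for RELA, each printed 5′ to 3′ on the strand of the gene.
NFKBIA: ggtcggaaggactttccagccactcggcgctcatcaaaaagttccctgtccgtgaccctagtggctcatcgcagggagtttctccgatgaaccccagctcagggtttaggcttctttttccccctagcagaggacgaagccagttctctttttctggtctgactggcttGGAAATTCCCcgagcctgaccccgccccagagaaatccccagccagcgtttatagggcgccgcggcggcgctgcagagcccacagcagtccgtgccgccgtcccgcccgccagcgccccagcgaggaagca
TNFAIP3: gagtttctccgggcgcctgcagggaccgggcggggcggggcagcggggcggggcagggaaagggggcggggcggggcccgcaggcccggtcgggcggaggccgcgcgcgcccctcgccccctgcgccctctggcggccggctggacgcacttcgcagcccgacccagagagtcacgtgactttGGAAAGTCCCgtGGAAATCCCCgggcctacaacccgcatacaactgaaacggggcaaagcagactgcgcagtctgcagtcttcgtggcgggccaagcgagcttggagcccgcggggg
BIRC3: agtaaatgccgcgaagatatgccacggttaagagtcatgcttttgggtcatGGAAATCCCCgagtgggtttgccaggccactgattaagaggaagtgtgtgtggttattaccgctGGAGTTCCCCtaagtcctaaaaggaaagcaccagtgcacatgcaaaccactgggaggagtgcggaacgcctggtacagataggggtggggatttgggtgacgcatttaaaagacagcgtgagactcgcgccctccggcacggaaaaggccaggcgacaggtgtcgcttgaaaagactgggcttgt
RELA: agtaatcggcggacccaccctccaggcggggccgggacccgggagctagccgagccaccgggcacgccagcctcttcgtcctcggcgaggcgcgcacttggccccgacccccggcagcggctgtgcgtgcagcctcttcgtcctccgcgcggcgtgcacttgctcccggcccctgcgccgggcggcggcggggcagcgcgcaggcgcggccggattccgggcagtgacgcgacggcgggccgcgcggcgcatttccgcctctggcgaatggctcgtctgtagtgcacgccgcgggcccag

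NFKBIA held 1 match, starting 81 bases before the start site. TNFAIP3 held 2, starting 67 and 55 bases before it, with 2 bases between them. In BIRC3 the 2 matches started 199 and 135 bases before the start. NFKB2 carried 3 matches at one of its 3 starts, where a pair of them overlapped, and 2 at another.

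On GRCh37, the build to which the reads were aligned, GENCODE places NFKBIA at chr14:35870285-35873955, TNFAIP3 at chr6:138188351-138204451, BIRC3 at chr11:102188215-102210134 and RELA at chr11:65421070-65430561. NFKBIE is at chr6:44225903-44233525, NFKBIZ at chr3:101546835-101579866, NFKB1 at chr4:103422487-103538459, NFKB2 at chr10:104153867-104162281, RELB at chr19:45504719-45541450 and TNIP1 at chr5:150409506-150473138. The exons of the reference transcript of each member overlapped no exon of another gene counted under the same symbol. BIRC3 has a close paralog, BIRC2, next to it on the chromosome, and reads that could not be told apart between them may be missing from either count. Strand was not stated for the counting.

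Libraries of the first series held 27920733 to 42371474 counts each, and those of the second 39254350 to 47381836. IgA replicate 3 stood apart, with the lowest total and 19.1% of its counts from the mitochondrial genome, against 5.75% to 8.32% in the other libraries of its series. Members called higher with IgA for which it held the highest normalised IgA count are also given without it, NFKBIZ against IgG only. RELA was highest there too, and is given as a range over single libraries left out. The common dispersion, a measure of spread between libraries beyond counting error, was 0.0307 for the first series but 0.00303 for the second. All 11 of 11 epithelial and ovarian carcinoma markers had at least 10 counts in every library. Of 10 markers of B and plasma cells, IGHA1, IGHA2 and IGKC were at 0 in all 18 libraries, and the summed level of the list was between 5.06 and 33.6 normalised counts. Of 10 myeloid and T cell markers, CD3D was at 0 in all 18 libraries, and the list summed to 51.9 to 76.2 normalised counts in libraries of the first series, and to 42.5 to 91.7 in those of the second. One of them, the leukocyte gene PTPRC, had higher normalised counts in every antibody-treated library of the second series, with 23, 24 and 10 reads with TSPAN7 IgA, 17, 19 and 18 with BDNF IgA and 6, 7 and 10 in untreated cells. It was called higher with TSPAN7 IgA (log2 1.39, edgeR adjusted p = 0.0487) but not with BDNF IgA (log2 1.24, adjusted p = 0.0864), and its part in the results of that series was not tested. Normalised counts are reads brought to a common effective depth, the average of a series, so levels are compared only within a series. With RNA from bulk cultures, more cells that express a gene cannot be told apart from more RNA per cell.

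In untreated cells the members spanned a wide range. In RPKM, reads per kilobase of the reference transcript after scaling to effective depth, RELA, the main transactivating subunit, and NFKBIA, an inhibitor that NF-kB itself induces, led the first series with 43.1 ± 2.04 and 42.6 ± 2.41 (SD, n = 3), and their libraries overlapped. NFKB2 at 21.2 ± 2.76 and TNIP1 at 19.4 ± 0.888 followed and also overlapped. NFKB1 (8.86), NFKBIZ (6.24) and RELB (3.04) were lower, and each was separated from its neighbours in all libraries. TNFAIP3 at 2.00 ± 0.184 and NFKBIE at 1.85 ± 0.140 overlapped, and BIRC3 was last at 0.228 ± 0.0770. In the untreated cells of the second series NFKBIA was first with 73.0 ± 0.712, above RELA at 57.1 ± 1.13 in every library, and BIRC3 was again last at 0.650 ± 0.0710. These levels depend on the transcript used for the length, since the transcripts present in the cells were not resolved.

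Non-specific IgA went with higher transcript levels of 9 of the 10 genes, and RELA was the exception. Against IgG, 9 members were called higher (edgeR quasi-likelihood test, adjusted p under 0.05) and 0 lower, beside 12.6% of all 18012 genes tested called higher and 11.6% called lower. Against untreated cells the counts were again 9 and 0, beside 12.9% and 12.1% of all genes. The median log2 fold change of the members was 1.64 against IgG and 1.73 against untreated cells, where the medians of all genes were -0.015 and -0.012. Without IgA replicate 3 they were 9 and 9, where 25.8% and 26.02% of all genes were called in either direction. These counts use the contrasts through which the genes were chosen, and nothing is read from them. Both contrasts share the same IgA libraries.

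**Figure D1:**
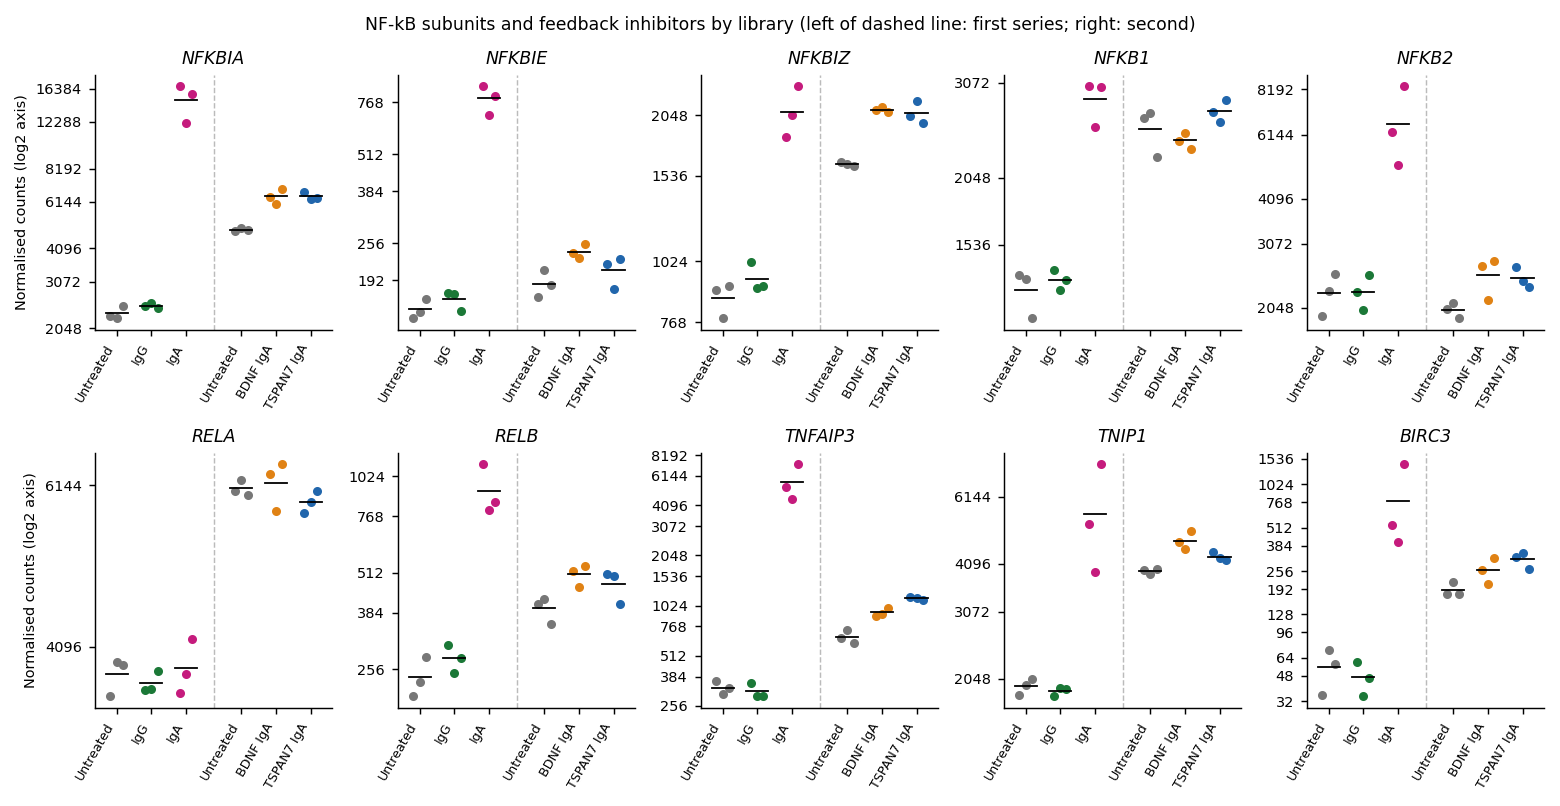
Normalised read counts (log2 axis) of the 10 genes in each of the 18 libraries, with 1 point per library, a bar at the group mean and a dashed line between the first and second series, which are not compared with each other. In the first series the IgA points lie above every IgG and untreated point in 9 panels, and in the RELA panel the groups overlap. The genes were chosen with values of these libraries known, and the share of all genes that separate in this way is not given, so nothing is read from the 9.

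TNFAIP3 encodes a ubiquitin-editing enzyme that ends signalling from cytokine receptors to the IkB kinase. It had 5294, 4435 and 7192 normalised counts in the 3 IgA libraries, 351, 294 and 292 in the IgG libraries and 360.3, 300.1 and 325 in untreated cells. The lowest IgA library was more than 10 times the highest of the other 6. The level was 18.03-fold that with IgG (log2 4.17 ± 0.18, SE) and 17.2-fold that of untreated cells (log2 4.10 ± 0.18). IgA replicate 3 was the highest library, and without it the log2 values were 3.96 and 3.89. On the RPKM scale its mean went from 1.90 with IgG, the ninth highest of the 10, to 34.3 with IgA, the fifth. Its libraries overlapped with those of NFKBIE with IgG, and with those of TNIP1 and RELA with IgA.

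BIRC3, a ubiquitin ligase that binds TRAF2 and protects cells from death signals, had 534, 409 and 1404 normalised counts with IgA, 59.7, 34.6 and 46.1 with IgG and 35.3, 72.3 and 58.0 in untreated cells. All IgA libraries were higher than all others, but IgA replicate 3 was far above the other 2. The log2 fold change was 4.05 ± 0.45 against IgG and 3.80 ± 0.44 against untreated cells. Without IgA replicate 3 it was 3.33 against IgG and 3.08 against untreated cells.

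TNIP1 binds TNFAIP3 and ubiquitin chains and restrains the same signals. Its IgA libraries had 5221, 3900.3 and 7462 normalised counts, those with IgG 1844, 1938 and 1928 and untreated cells 1864, 1969.9 and 2042. The groups did not overlap, and the highest value was again that of IgA replicate 3. The level was 2.90-fold that with IgG (log2 1.54 ± 0.18), and without this replicate the log2 value was 1.26 against IgG and 1.22 against untreated cells. The mitochondrial share of IgA replicate 3 goes with its high TNFAIP3, BIRC3 and TNIP1 counts, and its part in them was not tested.

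NFKBIA encodes the inhibitor that is broken down when the pathway opens and is then made anew under NF-kB control. Its IgA libraries had 16754, 12198 and 15637 normalised counts, the IgG libraries 2479.8, 2555 and 2453 and untreated cells 2287, 2239 and 2489. The 6 libraries without IgA lay within a narrow band and all IgA libraries far above it. The fold was 5.95 against IgG (log2 2.57 ± 0.12) and 6.36 against untreated cells (log2 2.67 ± 0.12). At 271 RPKM it was the most abundant of the 10 transcripts in IgA-treated cells, as it also was with IgG at 45.4 RPKM.

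The related inhibitor NFKBIE stood at 869, 695 and 807 normalised counts with IgA, 174, 173 and 152 with IgG and 143, 150.5 and 166 in untreated cells. Its IgA libraries were all higher, by 4.75-fold over IgG (log2 2.25 ± 0.16). NFKBIZ, an atypical IkB protein of the nucleus that helps switch on secondary targets such as IL6, had 1844, 2049.6 and 2349 normalised counts with IgA, 1020.1, 900.5 and 910.2 with IgG and 894, 783 and 911 in untreated cells. It too was higher in every IgA library, by 2.20-fold over IgG (log2 1.14 ± 0.12), which was less than the fold of NFKBIA or NFKBIE.

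Among the subunits, RELB, the partner of the processed NFKB2 product, had 1113, 804 and 848 normalised counts with IgA, 304, 249 and 277 with IgG and 211, 234 and 280.4 in untreated cells. The counts of NFKB2 were 6238, 5057 and 8353 with IgA, 2267, 2024 and 2514 with IgG and 1951, 2277 and 2537 in untreated cells. Both were higher in every IgA library, RELB by 3.33-fold (log2 1.74 ± 0.17) and NFKB2 by 2.89-fold (log2 1.53 ± 0.17) over IgG. NFKB2 was highest in IgA replicate 3, and without it the log2 value was 1.31 against IgG and 1.32 against untreated cells. NFKB1, the precursor of the classical DNA-binding subunit, had 3026, 2546 and 3016 normalised counts with IgA, 1379, 1266 and 1324 with IgG and 1351, 1325 and 1124 in untreated cells. Its 2.16-fold difference from IgG (log2 1.11 ± 0.11) was the smallest among the 9, except that without IgA replicate 3 NFKBIZ was lower at log2 1.04 and NFKB1 stood at 1.07.

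RELA had 3649.6, 3829 and 4183 normalised counts with IgA, 3674, 3687 and 3856 with IgG and 3618, 3949 and 3909.8 in untreated cells. The 3 groups overlapped. The log2 fold change was 0.056 with a 95% interval of -0.14 to 0.25 against IgG, and 0.023 with an interval of -0.18 to 0.22 against untreated cells. Scaling by library size alone, which lowers the median of all genes by 0.23 and 0.21 in these contrasts, turned the sign of both values, and the other 9 genes stayed higher.

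**Figure D2:**
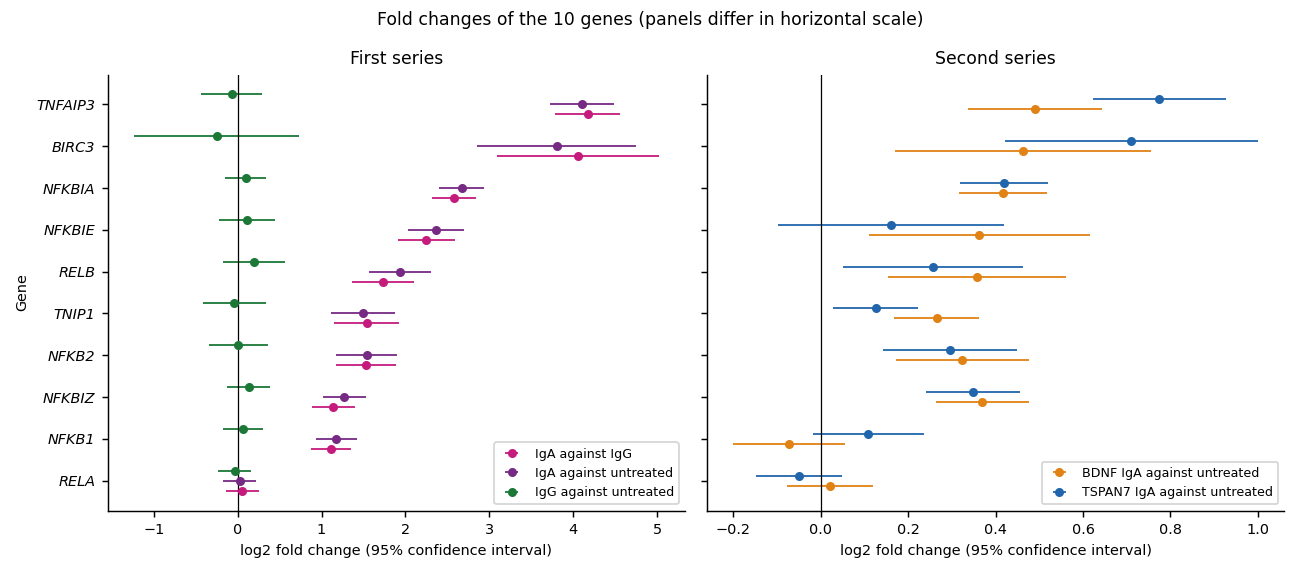
Log2 fold changes of the 10 genes (points) with 95% confidence intervals (bars), with the first series at left and the second at right, where the horizontal scale is narrower. With non-specific IgA 9 intervals lie above 0 and that of RELA spans it. Of all 18012 genes, 6758 against IgG and 6777 against untreated cells had an unadjusted edgeR p under 0.05. The genes were chosen with values of these libraries known, so nothing is read from the 9. All intervals for IgG against untreated cells span 0, and with TSPAN7 IgA the values of TNFAIP3 and BIRC3 are the highest.

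No difference between IgG and untreated cells was detected in the 10 transcripts. Against untreated cells 0 were called higher and 0 lower, and of all 18012 genes 0% were called higher and 0% lower by edgeR. Before adjustment 89 genes and 0 members had a p under 0.05, and DESeq2 also called 0 members. Among 18012 genes, 89 is fewer than this threshold would pass without any difference, so the edgeR p-values ran high here. The spread in the fit came from all 9 libraries, including those with IgA, whose replicates differed most, and its part in this was not tested. Under 18 other settings of the fit 0 members and at most 0.0059% of all genes were called. Small differences could have been missed, and the intervals may be too wide. The libraries of the 2 groups overlapped for all 10 genes. The log2 fold change of NFKBIA was 0.094 with a 95% interval of -0.15 to 0.34, and that of TNFAIP3 was -0.071 (-0.43 to 0.29). For BIRC3, with few counts in both groups, the interval was wide (-1.23 to 0.73).

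The antigen-directed IgA antibodies were tested only within their own series, first against its untreated cells and then against each other. The 2 comparisons with untreated cells share the untreated libraries. With BDNF IgA 7 members rose and 0 fell, beside 4.49% of all 18732 genes tested called higher and 3.18% called lower. With TSPAN7 IgA 5 rose and 0 fell, beside 4.46% and 4.08% of all genes. The median log2 fold change of the members was 0.36 with BDNF IgA and 0.28 with TSPAN7 IgA. NFKBIA, NFKBIZ, TNFAIP3, NFKB2 and BIRC3 rose in both comparisons, and TNIP1 and RELB passed the test with BDNF IgA but not with TSPAN7 IgA, although the test between the antibodies called neither. The labels do not say that the 3 libraries of a group came from separate cultures, so the p-values measure the spread between these libraries, which may be technical.

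NFKBIA had 6404, 6025 and 6874 normalised counts with BDNF IgA, 6708, 6277 and 6369 with TSPAN7 IgA and 4782, 4874 and 4811 in untreated cells. Every treated library was above every untreated one. It rose 1.33-fold with BDNF IgA (log2 0.42 ± 0.048, edgeR adjusted p = 7.08e-06) and 1.34-fold with TSPAN7 IgA (log2 0.42 ± 0.048, adjusted p = 5.74e-06). The counts of NFKBIZ were 2097, 2128 and 2078 with BDNF IgA, 2038, 2192 and 1975 with TSPAN7 IgA and 1638, 1627 and 1611 in untreated cells. Again no treated library reached down to the untreated ones, with rises of 1.29-fold (adjusted p = 7.55e-05) and 1.27-fold (adjusted p = 1.28e-04).

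With both antibodies TNFAIP3 had the highest fold change of the members in the fit of 9 libraries, but BIRC3 passed it with BDNF IgA when replicate 2 of that group was left out (log2 0.60 against 0.50) and with TSPAN7 IgA when replicate 3 of that group was (log2 0.81 against 0.79). TNFAIP3 had 888, 910.0 and 995 normalised counts with BDNF IgA, 1156, 1140.4 and 1104 with TSPAN7 IgA and 650.3, 733 and 607 in untreated cells. The 3 groups formed 3 separate bands. It rose 1.41-fold with BDNF IgA (log2 0.49 ± 0.073, adjusted p = 1.92e-04) and 1.71-fold with TSPAN7 IgA (log2 0.77 ± 0.073, adjusted p = 2.83e-07).

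BIRC3 had 259.7, 209 and 314 normalised counts with BDNF IgA, 323, 341 and 265 with TSPAN7 IgA and 177, 213 and 178 in untreated cells. TSPAN7 IgA libraries were all above the untreated ones, whereas BDNF IgA replicate 2 lay among them. The rise was 1.64-fold with TSPAN7 IgA (adjusted p = 0.00226) and 1.38-fold with BDNF IgA (adjusted p = 0.0472). The second call was at the threshold and was lost when only the 6 libraries compared were fitted (adjusted p = 0.0724), or without any 1 of BDNF IgA replicates 1 and 3, TSPAN7 IgA replicates 1 and 2 and untreated replicates 1, 2 and 3 (adjusted p = 0.0505 to 0.288). Without BDNF IgA replicate 3 its log2 value went from 0.46 to 0.30.

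For the subunits and TNIP1 the responses were smaller. NFKB2 had 2673, 2149.5 and 2758 normalised counts with BDNF IgA, 2661, 2431 and 2339.6 with TSPAN7 IgA and 2029, 2110.0 and 1919.8 in untreated cells. It rose 1.25-fold (adjusted p = 0.00779) and 1.23-fold (adjusted p = 0.0135) with no overlap to untreated cells, and the first call was lost without BDNF IgA replicate 1 (adjusted p = 0.0546) or 3 (0.0554), the second without TSPAN7 IgA replicate 1 (0.0891) or untreated replicate 3 (0.0766). The counts of TNIP1 were 4688, 4473 and 4984 with BDNF IgA, 4405, 4244 and 4198 with TSPAN7 IgA and 3942, 3847 and 3984 in untreated cells, and both antibody groups were above untreated cells in every library. It rose 1.20-fold with BDNF IgA (adjusted p = 0.00104) and with TSPAN7 IgA was 1.09-fold (log2 interval 0.029 to 0.22, adjusted p = 0.106), which was not called in the fit of 9 libraries but was in that of the 6 compared (adjusted p = 0.0478).

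RELB had 517, 463 and 539 normalised counts with BDNF IgA, 506, 499.6 and 410.3 with TSPAN7 IgA and 408, 425 and 355 in untreated cells. BDNF IgA libraries were all above untreated ones, and TSPAN7 IgA replicate 3 was among them. The fold was 1.28 with BDNF IgA (adjusted p = 0.0265) and 1.19 with TSPAN7 IgA (log2 interval 0.051 to 0.46, adjusted p = 0.119). The RELB call with BDNF IgA was lost without any 1 of BDNF IgA replicates 1 and 3 and untreated replicates 1 and 3, where adjusted p was 0.0611 to 0.138. NFKBIE had 237, 228 and 256 normalised counts with BDNF IgA, 219, 180.2 and 227 with TSPAN7 IgA and 168, 207 and 185 in untreated cells. With BDNF IgA all its libraries were above untreated cells at a log2 value of 0.36 (0.11 to 0.62, adjusted p = 0.0739), which was called only without BDNF IgA replicate 2 (adjusted p = 0.0418), and with TSPAN7 IgA the value was 0.16 (-0.099 to 0.42).

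RELA and NFKB1, like NFKBIE, were not called with either antibody. RELA had 6318, 5768 and 6477 normalised counts with BDNF IgA, 5728, 5894 and 6057 with TSPAN7 IgA and 6055, 6233 and 6004 in untreated cells, with overlap of all groups. Its log2 fold change was 0.021 (-0.076 to 0.12) with BDNF IgA and -0.049 (-0.15 to 0.049) with TSPAN7 IgA. The counts of NFKB1 were 2399, 2481 and 2318 with BDNF IgA, 2707, 2598 and 2856 with TSPAN7 IgA and 2637, 2696 and 2239.5 in untreated cells, at log2 values of -0.072 (-0.20 to 0.055) and 0.11 (-0.018 to 0.24). Both antibody groups overlapped with untreated cells.

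The antigen-directed antibodies were then set against each other at 1 dose and time. Of the 10 members 1 was called higher with TSPAN7 IgA and 0 lower, beside 3.42% and 4.50% of all genes, and a single call says nothing of the members as a list. The called gene was TNFAIP3, 1.22-fold higher with TSPAN7 IgA (log2 0.28 ± 0.071, adjusted p = 0.0166) and higher in 3 of 3 libraries. This call was lost without BDNF IgA replicate 1 (adjusted p = 0.0976) or TSPAN7 IgA replicate 1 (0.0533) or 2 (0.0789). For NFKBIA the difference was 0.0037 with a 95% interval of -0.096 to 0.10. NFKB1 was above BDNF IgA in every TSPAN7 IgA library (log2 0.18, 0.054 to 0.31, adjusted p = 0.0747) and TNIP1 below it in every one (log2 -0.14, -0.24 to -0.042, adjusted p = 0.0730). Without BDNF IgA replicate 2 both of these were called, at adjusted p = 0.0222 for NFKB1 and 0.00936 for TNIP1, where 17.1% of all genes were called in place of 7.92%. NFKB1 was also called without untreated replicate 3 (adjusted p = 0.0343).

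Setting an inhibitor against RELA within each library removes depth and scaling from the comparison. There were 3.19 to 4.59 reads of NFKBIA per RELA read in the non-specific IgA libraries, 0.636 to 0.693 in the IgG libraries and 0.567 to 0.637 in untreated cells. For TNFAIP3 per RELA the ranges were 1.16 to 1.72, 0.0757 to 0.0955 and 0.0760 to 0.0996. Both ratios were thus higher in all IgA libraries whatever the scaling. In the second series NFKBIA per RELA was 1.01 to 1.06 with BDNF IgA, 1.05 to 1.17 with TSPAN7 IgA and 0.782 to 0.801 in untreated cells, and TNFAIP3 per RELA was 0.141 to 0.158, 0.182 to 0.202 and 0.101 to 0.118. The groups of treated and untreated cells were separate for both ratios. NFKB2 per NFKB1, precursor against precursor, was 1.99 to 2.77 with non-specific IgA, separate from 1.60 to 1.90 with IgG but overlapping with 1.44 to 2.26 in untreated cells. In the second series it was 0.866 to 1.19 with BDNF IgA, above the 0.769 to 0.857 of untreated cells, and 0.819 to 0.983 with TSPAN7 IgA, which overlapped with them.

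**Figure D3:**
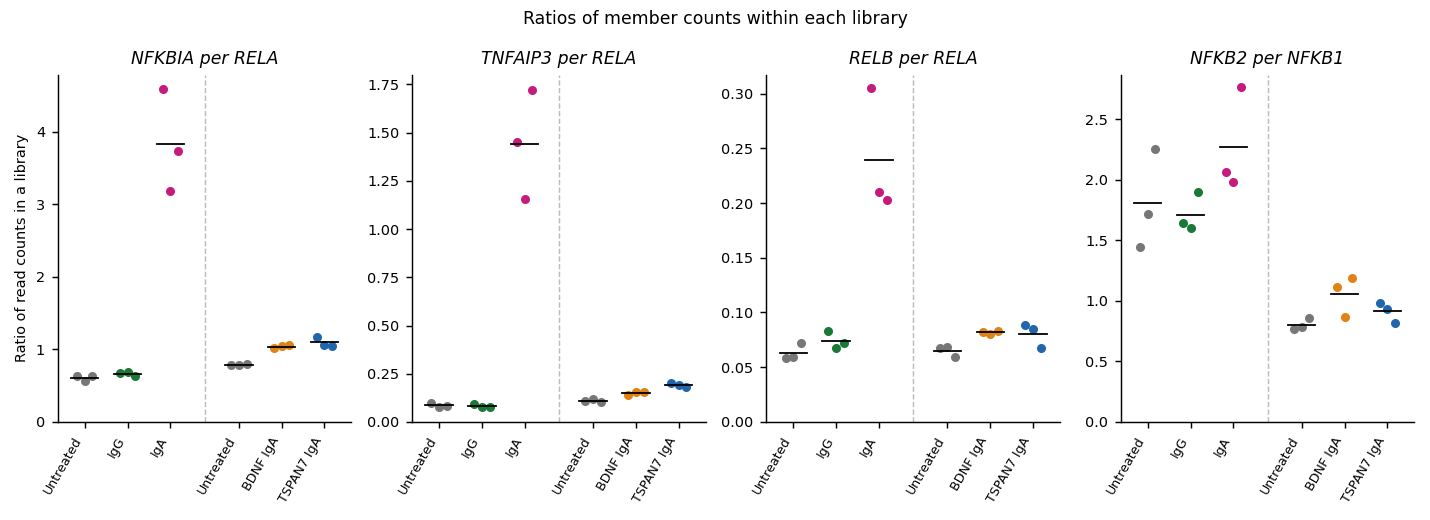
Ratios of the read counts of 2 members within each library (points, with a bar at the group mean), the first series left of the dashed line and the second right of it. NFKBIA, TNFAIP3 and RELB per RELA are higher in all 3 non-specific IgA libraries than in the other 6 of that series, and NFKB2 per NFKB1 overlaps with untreated cells for non-specific IgA and TSPAN7 IgA but not for BDNF IgA.

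Correlations were taken over the 18 libraries of both series, each value relative to the mean of the untreated libraries of its series. Pearson r between pairs of the 9 genes other than RELA ran from 0.90 to 0.99, and between RELA and the others from 0.15 to 0.38. The points share their libraries and the wide gap between the non-specific IgA libraries and the rest, through which the genes were chosen. No values over all pairs of genes are given, so nothing is read from these r values. In the second series NFKBIA was at log2 0.42 with BDNF IgA and NFKB1 at -0.072, although r between them was 0.96. Among 13337 other genes, the pattern most like NFKBIA was that of IRAK2 (r = 0.99), followed by LIF and IL8 (both 0.99). For TNFAIP3 these were LIF, CCL20 and SEC14L1 (all 0.99), for TNIP1 SOD2 (0.99) and for RELB ICAM1 (0.98). RELA had no gene as close, with GOLGB1 first at 0.84.

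Other genes of the pathway were taken from lists chosen with earlier results of these data known, so their counts are a description, to be read beside the 12.6% of all genes called higher and the 11.6% called lower with non-specific IgA against IgG. Of 4 other Rel and IkB genes, 2 were called higher with non-specific IgA against IgG and 0 lower, BCL3 at log2 1.62 ± 0.24 and REL at 0.62 ± 0.15. BCL3 is an IkB relative that binds the NFKB1 and NFKB2 products in the nucleus, and REL is a subunit better known from lymphocytes. Of 12 tested genes for other feedback inhibitors and deubiquitinases, 3 were higher and 2 lower. They were led by ZC3H12A, an RNase that degrades cytokine transcripts (log2 1.66 ± 0.25), and SPATA2, which recruits a deubiquitinase to receptors (log2 -0.89 ± 0.18). The other calls were PDLIM2 (0.52), TAX1BP1 (0.33) and N4BP1 (-0.48).

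Upstream, of 20 kinases and adaptors of the canonical arm 3 were higher and 2 lower, with a list median of -0.12, shares near those of all genes. BIRC2, the paralog of BIRC3, was at 1.25 ± 0.15, the adaptors TRAF2 and TAB2 were at 0.41 and 0.35, and the receptor-bound kinase RIPK1 at -0.84 ± 0.17 and the IkB kinase IKBKB at -0.60 ± 0.16 were lower. Of 9 genes of the non-canonical arm 3 were higher and 1 lower. The ligand subunit LTB led them at log2 5.23 ± 0.67, with 200, 89 and 228 reads with IgA, 9, 5 and 4 with IgG and 7, 7 and 0 in untreated cells. The receptors TNFRSF12A (1.21 ± 0.12) and CD40 (1.03 ± 0.16) were also higher, and the ligand TNFSF14 was lower (-0.98 ± 0.25). Of the 8 genes that ubiquitinate IkB for degradation, 1 was higher, SKP1 at 0.39 ± 0.10, and 0 lower.

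Ligands and receptors of the canonical arm moved in both directions with non-specific IgA, 6 of 13 tested being called higher and 3 lower. TNF, a ligand that opens the pathway, had a mean of 1024 normalised counts with IgA and 29.6 with IgG (log2 5.09 ± 0.29), and IL1A had 711 and 20.4 (log2 5.12 ± 0.36). IL1B had 54, 41 and 63 reads with IgA and 0, 1 and 0 with IgG. The microbial sensors TLR5 (-1.40 ± 0.26) and TLR3 (-1.11 ± 0.18) and the receptor IL1R1 (-0.59 ± 0.16) were lower. The list of target genes had 16 of 19 tested called higher and 0 lower, with a median log2 value of 2.32, beside the 12.6% and 11.6% of all genes, and was led by the neutrophil chemokine CXCL8 (listed as IL8) at 6.88 ± 0.31, the chemokine CCL20 at 6.40 ± 0.26 and the cytokine IL6 at 4.53 ± 0.24.

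**Figure D4:**
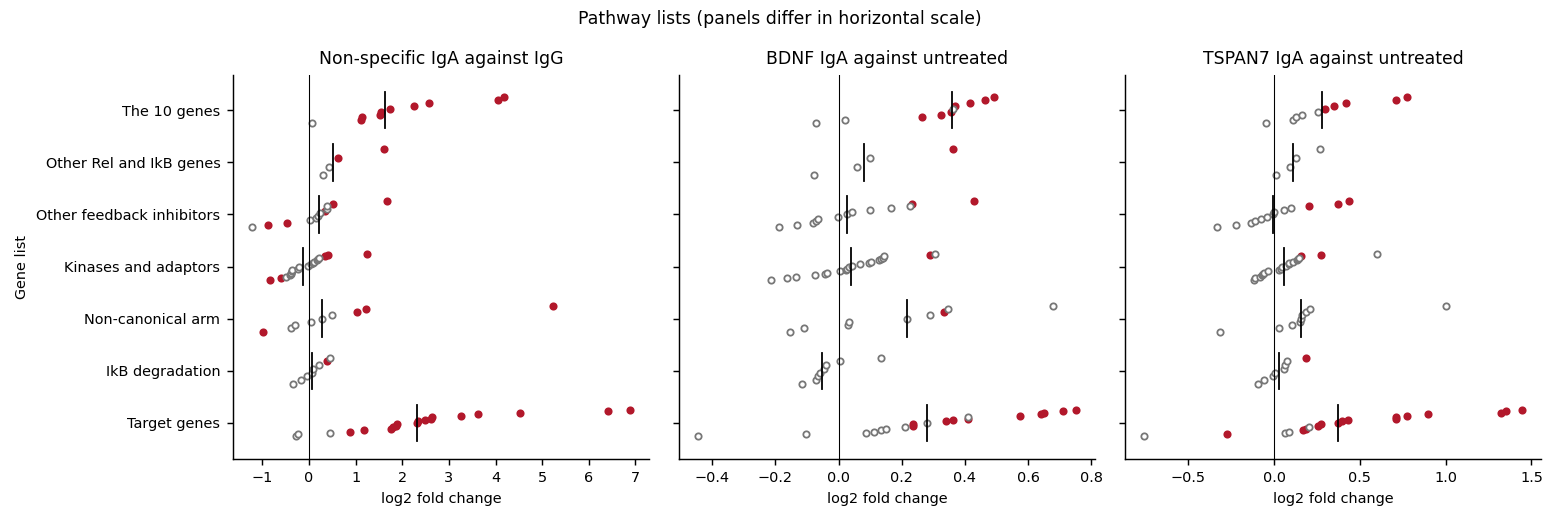
Log2 fold changes of the genes of each pathway list (points, filled red where called, open where not) with a vertical bar at the list median, for non-specific IgA against IgG and for BDNF IgA and TSPAN7 IgA against untreated cells, on different horizontal scales. The medians of the 10 genes and of the target genes lie to the right of 0 in all panels, at 1.64 and 2.32 with non-specific IgA, and those of the kinases and of the degradation genes near 0.

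The same lists were counted for the antigen-directed antibodies, where 4.49% of all genes were called higher with BDNF IgA and 4.46% with TSPAN7 IgA. Among other Rel and IkB genes 1 of 4 rose with BDNF IgA, NFKBID (log2 0.36, adjusted p = 0.0343), and 0 with TSPAN7 IgA. ZC3H12A rose with both, at 0.43 (adjusted p = 1.92e-04) and 0.43 (adjusted p = 1.27e-04), among 2 and 3 of 13 feedback genes called higher. The others were N4BP1 with both (0.23 and 0.20) and PDLIM2 with TSPAN7 IgA (0.37). In the list of 20 kinases and adaptors 1 and 2 rose, RNF31, a ligase for linear ubiquitin, being called with both antibodies (0.29 and 0.27) and IRAK1 with TSPAN7 IgA (0.15). Of the non-canonical arm CD40 alone rose with BDNF IgA (0.34, adjusted p = 0.0265) and 0 genes with TSPAN7 IgA, and of the degradation genes 0 and 1, UBE2D1 with TSPAN7 IgA (0.18, adjusted p = 0.0383).

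Of 14 ligands and receptors 4 rose and 0 fell with each antibody, among them IL1A at 1.39 with BDNF IgA and 1.48 with TSPAN7 IgA, and TNF at 0.87 and 1.09. IL1B had 13, 17 and 17 reads with BDNF IgA, 19, 11 and 22 with TSPAN7 IgA and 5, 5 and 3 in untreated cells. Of 19 target genes 10 rose and 0 fell with BDNF IgA, CCL20 (0.75), CXCL8 (0.71) and CSF1 (0.65) the most. With TSPAN7 IgA 14 rose, led by CXCL8 (1.45), IL6 (1.35) and CCL20 (1.32), and 1 fell, CFLAR, which restrains caspase activation (-0.28, adjusted p = 7.04e-04). Between the antibodies 6 of the 19 targets were called higher and 1 lower with TSPAN7 IgA, beside 3.42% and 4.50% of all genes. IL6 at 0.94 (edgeR adjusted p = 0.00746), CXCL8 at 0.74 (adjusted p = 8.89e-06) and CCL20 at 0.57 (adjusted p = 0.00633) were above BDNF IgA in every library. The ligand IL18 was also called higher (0.37) and TNFSF14 lower (-0.53) in this comparison.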

How the data were processed

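The 18 RNA-seq libraries of OVCAR3 cells were put into 6 groups of 3 by their titles. The values the authors deposited are raw read counts per gene symbol in 1 table per series, without normalization. Reads were aligned to GRCh37 with STAR and counted per gene with featureCounts according to the study's methods, and the submitters' processing notes list bcl2fastq 2.20.0.422, cutadapt 1.8.1, HTSeq 0.6.1 and hg19, so the counter is uncertain. Whether counting used strand is not stated. Exact repeats of a row (2055, all in the table with the antigen-directed antibodies) were removed. Replicates differed by more than sampling noise, so none was counted as a copy.

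Each table was fitted once, with all 9 libraries, by the two-sided quasi-likelihood F test of edgeR 4.0.16 (R 4.3.3), after filterByExpr and TMM scaling. P-values were adjusted by Benjamini-Hochberg over all genes of a comparison, with 0.05 as the threshold for a call. Standard errors are the log2 fold change over the square root of F, and intervals are 95%. RPKM used the length of the Ensembl canonical transcript in GENCODE v44 on GRCh37. Likeness was Pearson r of log2(normalised counts + 0.5) over genes with a mean of at least 50 normalised counts. The fit was tested on simulated counts with known changes. The members and lists were chosen with earlier results of these data known. All 10 members are named, and of other lists up to 3 called genes with the largest changes in each direction of the comparisons printed. Alternatives were DESeq2 1.42.0, RLE scaling, library size only, other filters, the 6 libraries compared, removal of mitochondrial and ribosomal RNA genes, a stricter threshold, a replicate block and leaving out each library. Totals of 27920733 to 47381836 counts set the counting error, but since the reads carried no molecular identifiers, errors rest on how far libraries differed.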

Additional observations from a re-analysis of the deposited data

How the results depend on the processing

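With non-specific IgA, whose values were known when the genes were chosen, 9 members were called under each of 18 alternatives in both contrasts, which is no support for them. Under these alternatives 0 members were called for IgG against untreated cells. With library size only, RELA turned to -0.184 against IgG and -0.191 against untreated cells, the calls higher fell from 51.9% to 19.4% and from 51.4% to 23.3% of all calls, and NFKBIA between TSPAN7 IgA and BDNF IgA turned to -0.00999. These signs belong to uncalled values near 0. Leaving out single libraries moved RELA from -0.00173 to 0.0960 against IgG and from -0.0341 to 0.0635 against untreated cells, and from -0.0148 to 0.0665 with BDNF IgA. In IgG against untreated cells it moved NFKB2 from -0.0852 to 0.0981 and NFKB1 from -0.0189 to 0.11. Between TSPAN7 IgA and BDNF IgA it moved NFKBIA from -0.0400 to 0.0544, NFKB2 from -0.13 to 0.0398 and NFKBIZ from -0.0657 to 0.00988.

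Members called with BDNF IgA numbered 4 to 8 when a library was left out, with 4 without BDNF IgA replicate 1 or 3. With TSPAN7 IgA against untreated cells 4 to 6 members were called over all 18 alternatives. Between TSPAN7 IgA and BDNF IgA they were 0 to 3 when a library was left out, 2 with library size only, 2 with no filter and 0 at an adjusted p under 0.01. The cause was not tested.

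Of all genes, 24.2% were called for non-specific IgA against IgG, 14.0% with no filter and 11.3% at an adjusted p under 0.01. Against untreated cells these were 25%, 14.3% and 11.8%. With BDNF IgA 7.67% were called, 3.41% at the stricter threshold and 14.6% without BDNF IgA replicate 2. With TSPAN7 IgA 8.54% were called, 13.0% with only the 6 libraries compared, 5.42% with no filter and 4.12% at the stricter threshold. Between the antibodies 7.92% were called and 3.09% at the stricter threshold. Leaving out 1 library gave 13.8% to 28.5% and 14.0% to 28.2% for non-specific IgA, and 3.83% (without BDNF IgA replicate 3) to 14.6% for BDNF IgA. It gave 3.95% (without TSPAN7 IgA replicate 2) to 12.01% for TSPAN7 IgA, and 2.52% (without BDNF IgA replicate 3) to 17.1% (without BDNF IgA replicate 2) between the antibodies.

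Whether replicate numbers shared between groups pair the libraries was not settled, since libraries of unlike number were not compared. For libraries of the same number, deviations from the group means correlated at -0.063 to 0.19 in the first series, with 1 of 9 pairs above 0.1. In the second they correlated at -0.011 to 0.084, with 0 of 9. With the replicate block 9, 9, 0, 6, 5 and 1 members were called in the 6 comparisons. BIRC3 with BDNF IgA was then at an adjusted p of 0.05002 and not called. Low counts limit BIRC3 most, with 34.6 to 72.3 normalised counts in cells of the first series without IgA.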
